A study of Homo sapiens with 24 samples.

Results

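The effect of the compound AZ2 on gene expression was examined in OCI-AML2, an established human cell line grown from acute myeloid leukaemia. The comparison used 8 of the 24 libraries of the series: 4 from cells given AZ2 and 4 from cells given DMSO, the solvent control, each collected after 24 h. It covers every gene of the OCI-AML2 table, in which 15377 of 35587 gene symbols had values high enough to be tested. The other libraries of the series are OCI-AML2 cells given ARM165 for the same time, and MOLM14 cells, a further line from acute myeloid leukaemia, given DMSO, AZ2 or ARM165, with 4 libraries in each group. Both lines are grown in culture and no genetic change is named in the labels for any group. The labels give neither doses nor the target of AZ2, which is known from the literature as a selective inhibitor of PI3K gamma. They do not state whether the replicates of a group are separate cultures, so the p-values rest on library-to-library spread alone, and that spread may be technical.

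PI3K gamma is a lipid kinase found mainly in blood cells. Its catalytic subunit is encoded by PIK3CG, its regulatory subunits by PIK3R5 and PIK3R6, and the kinase AKT acts downstream of it. Cells make cholesterol from acetyl-CoA through the mevalonate pathway, and most enzymes of that route are under the control of the transcription factor SREBP2, encoded by SREBF2. SREBP precursors are held in the endoplasmic reticulum by SCAP and the INSIG proteins while sterols are plentiful. When sterols fall, the precursors are moved to the Golgi, cut by the proteases MBTPS1 and MBTPS2, and enter the nucleus. INSIG1 is itself a target of this system, as are the fatty acid desaturases.

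Values are normalized estimated reads per gene, scaled by the authors, and each difference is therefore measured against the bulk of the other genes. Estimated depth was 36.9 to 47.7 M reads in the DMSO libraries and 36.9 to 58.0 M in the AZ2 libraries, with 19005 to 19461 symbols above 0. The change is the mean of log2(value + 1) with AZ2 minus that with DMSO. It is given with its standard error (SE) from limma, and the median SE over all genes was 0.115. A gene was called when its limma p-value, adjusted over all genes tested by the Benjamini-Hochberg method, was under 0.05. The libraries carried the markers of a myeloid leukaemia: 13 of 14 were high enough to be tested, their summed level was 114391 to 124557 with DMSO and 113657 to 121824 with AZ2, and ANPEP was the marker that was not. In bulk RNA, fewer cells of a type and less RNA per cell cannot be told apart.

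Of the 17 called genes, 13 make or regulate sterols and unsaturated fatty acids, and the promoters of a few are printed here because these genes carry the main result. RefSeq promoters (GRCh38.p14, 250 bases before to 50 after the start site, 5′ to 3′ on the gene's own strand) were matched for 10 of these 13 genes, and some genes have more than 1 start site. Capitals mark CCAAT on either strand, the core of the NF-Y motif, which reads ATTGG when it lies on the reverse strand; matches on opposite strands may overlap. HMGCS1 and MSMO1 encode sterol enzymes and SCD a desaturase. HMGCS1 has 2 start sites in the table, and the promoter with CCAAT is printed.
HMGCS1 (chr5:43313363-43313662, - strand): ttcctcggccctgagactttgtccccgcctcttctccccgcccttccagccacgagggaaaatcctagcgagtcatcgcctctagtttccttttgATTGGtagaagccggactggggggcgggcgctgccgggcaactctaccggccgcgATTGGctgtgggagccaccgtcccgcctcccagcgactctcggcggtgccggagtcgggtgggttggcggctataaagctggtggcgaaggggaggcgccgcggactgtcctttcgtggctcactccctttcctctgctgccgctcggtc
MSMO1 (chr4:165327419-165327718, + strand): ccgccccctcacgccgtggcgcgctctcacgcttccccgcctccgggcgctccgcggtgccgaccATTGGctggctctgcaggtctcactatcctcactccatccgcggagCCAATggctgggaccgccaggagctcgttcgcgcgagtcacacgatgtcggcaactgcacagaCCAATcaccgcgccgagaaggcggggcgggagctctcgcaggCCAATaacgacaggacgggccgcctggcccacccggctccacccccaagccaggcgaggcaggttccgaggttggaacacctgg
SCD (chr10:100346983-100347282, + strand): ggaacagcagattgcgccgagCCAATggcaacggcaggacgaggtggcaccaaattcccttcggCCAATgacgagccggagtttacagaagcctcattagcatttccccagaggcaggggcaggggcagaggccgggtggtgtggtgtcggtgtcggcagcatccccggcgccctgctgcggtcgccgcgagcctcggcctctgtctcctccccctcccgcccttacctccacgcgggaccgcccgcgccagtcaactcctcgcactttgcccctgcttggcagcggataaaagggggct
In the printed HMGCS1 promoter, CCAAT matched at 2 places, and in the other (chr5:43313132-43313431) at 0. It matched in the MSMO1 promoter at 4 and in the SCD promoter at 2. Over the 14 promoters of the 10 matched genes, 9 (64.3%) held CCAAT, against 34.6% of all 35116 promoters of the table and 34.5% of those of the genes tested. The Sp1 core GGGCGG was in 13 (92.9%), against 45% of all promoters and 62.9% for the genes tested. A sterol regulatory element motif, TCACNCCAC, was found in 0 of the 14, and in 1.13% of all promoters. These shares describe letters in a fixed window and were not tested.

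The single gene called higher was EGR1, a zinc finger transcription factor made within minutes of growth factor signalling. Its promoter is shown because it holds 2 CArG boxes, the motif of serum response factor, marked in capitals.
EGR1 (chr5:138465229-138465528, + strand): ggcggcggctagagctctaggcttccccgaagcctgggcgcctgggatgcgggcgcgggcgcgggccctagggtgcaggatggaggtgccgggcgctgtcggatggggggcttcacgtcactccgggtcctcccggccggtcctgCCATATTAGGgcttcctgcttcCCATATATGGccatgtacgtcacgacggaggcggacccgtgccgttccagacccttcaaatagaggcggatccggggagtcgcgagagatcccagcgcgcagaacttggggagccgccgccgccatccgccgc
The boxes lay at bases -105 to -96 and -83 to -74 from the start site. A CArG box was found in 1.29% of all promoters and in 1.09% of those of the genes tested.

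AZ2 lowered a compact set of genes. Of 15377 genes, 17 (0.111%) were called, 16 lower (0.104%) and 1 higher (0.0065%). The 16 lower genes comprised 9 enzymes of sterol synthesis, the SREBP regulator INSIG1, 3 fatty acid desaturases, and 3 genes outside lipid synthesis. In each of the 16, all 4 AZ2 libraries lay below all 4 DMSO libraries, as they did in 1.48% of the genes tested. In 1.18% they lay above all DMSO libraries. The 16 were chosen by their p from the same libraries, so their separation largely follows from the choice and is no further support. Changes of the 13 lipid genes were moderate, from -0.83 to -0.33 with a median of -0.54, which is 20.5 to 43.7% less RNA. Their DMSO means ran from 979 to 24999 estimated reads. At an unadjusted p under 0.05, 398 genes (2.59%) were lower and 335 (2.18%) higher, 733 (4.77%) in all. The median change over all genes was -0.017. Leaving out 1 library at a time lowered the number called to 9 without DMSO replicate 1 or AZ2 replicate 2, to 10 without DMSO replicate 4 or AZ2 replicate 3, and to 11 without AZ2 replicate 1. INSIG1, FADS2, HMGCS1, FDFT1, ACAT2 and EGR1 kept their calls in all 24 alternative analyses.

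**Figure D1:**
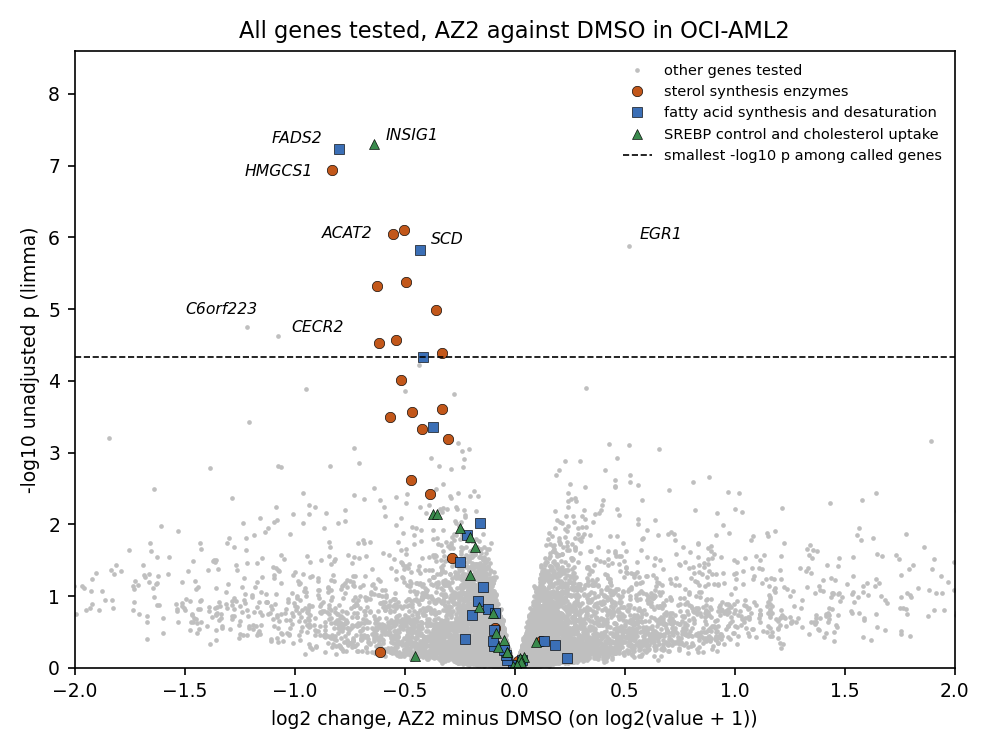
Each point is a gene tested, with its log2 change (AZ2 minus DMSO, horizontal) and -log10 of the unadjusted limma p (vertical); colours mark the sterol, fatty acid and SREBP control lists, the dashed line is the called gene with the largest p, and 100 genes beyond a change of 2 in size lie outside the axis. Most points above the line belong to the lipid lists and lie on the left, and EGR1 is the lone point above it on the right.

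**Figure D2:**
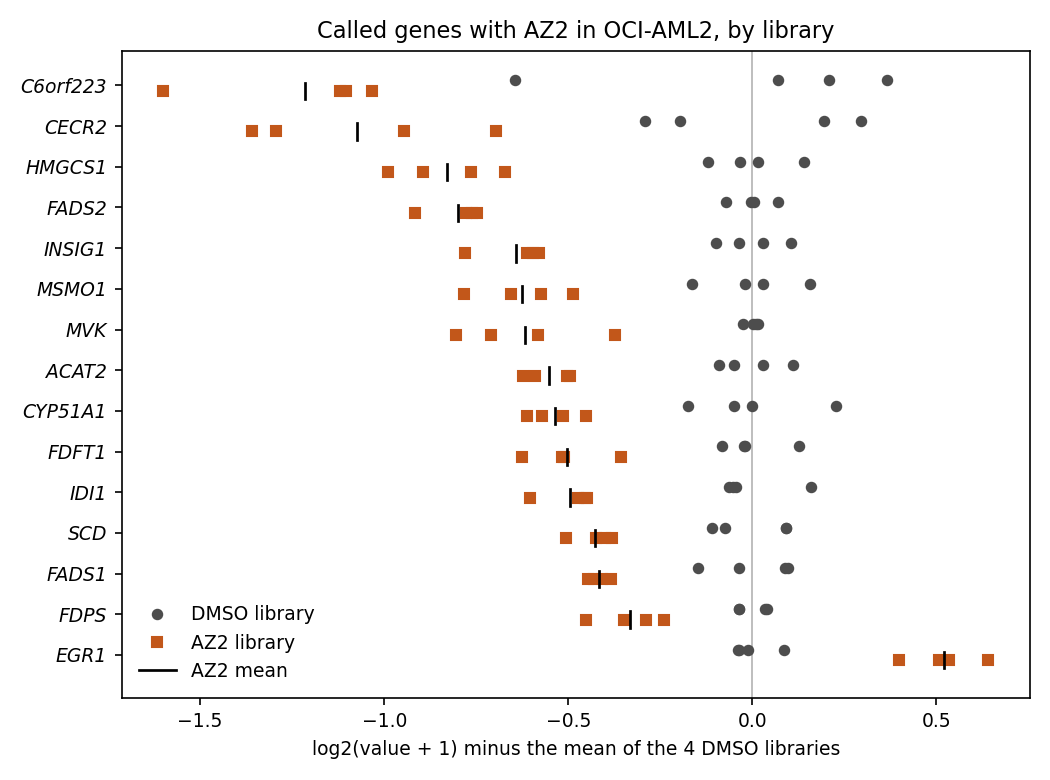
Values of 15 called genes in each library, as log2(value + 1) minus the mean of the 4 DMSO libraries; circles are DMSO libraries, squares AZ2 libraries and ticks the AZ2 means. AC025048.6 is left out because its change is off the scale; in the 14 genes above EGR1 every square lies left of every circle, and in EGR1 every square lies right.

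The enzymes at the head of the mevalonate pathway, ACAT2 and HMGCS1, fell. ACAT2 encodes the cytosolic thiolase that joins acetyl-CoA units. It read 3131, 3600.4, 3401 and 3217 with DMSO and 2213, 2351, 2162 and 2366 with AZ2 (change -0.55 ± 0.068, adjusted p = 0.00273). HMGCS1 makes HMG-CoA and had the largest fall of the sterol enzymes. Its values were 1304, 1425, 1188 and 1261 with DMSO and 695, 759.5, 649 and 809.8 with AZ2 (change -0.83 ± 0.087, adjusted p = 0.000593), 43.7% less. The highest AZ2 library lay well under the lowest DMSO library.

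The kinases and isomerases that follow gave a mixed picture. MVK, mevalonate kinase, was tightly grouped with DMSO at 982, 991, 963 and 988 and more spread with AZ2 at 655, 561, 599 and 758 (change -0.62 ± 0.10, adjusted p = 0.03). PMVK, the next kinase, overlapped between groups, with a change of -0.089 ± 0.079 and an interval of -0.26 to 0.08. MVD, which forms isopentenyl diphosphate, had a change of -0.42 ± 0.094 without overlap and was not called (adjusted p = 0.235). IDI1, the isomerase of isopentenyl diphosphate, fell from 4134, 4764, 4085 and 4113 to 3074, 3125, 2806 and 3113 (change -0.49 ± 0.07, adjusted p = 0.00808). FDPS joins these units into farnesyl diphosphate. It read 11215, 11835, 11787 and 11224 with DMSO and 8414, 9043, 9424 and 9738 with AZ2 and had the smallest change of the called lipid genes (change -0.33 ± 0.058, adjusted p = 0.0399); its call was lost in 13 of 24 alternatives. GGPS1 uses farnesyl diphosphate for protein prenylation and not for sterols, and its change was 0.015 ± 0.061 with an interval of -0.12 to 0.15. IDI2 was near the lower limit of the measurement, at 0 to 17.3 in all 8 libraries.

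The sterol branch proper begins with FDFT1, squalene synthase. It read 7625, 8435, 7299 and 7610.5 with DMSO and 5422, 5401, 5014 and 6034 with AZ2 (change -0.50 ± 0.062, adjusted p = 0.00273). SQLE, the squalene epoxidase, had a change of -0.46 ± 0.098 and LSS, lanosterol synthase, of -0.39 ± 0.11; neither was called (adjusted p = 0.157 and 0.635), and LSS overlapped between groups. CYP51A1, the lanosterol demethylase, fell from 2520.2, 2954, 2235 and 2439.6 to 1766, 1845, 1698 and 1652 (change -0.54 ± 0.09, adjusted p = 0.0294). The sterol C4-methyl oxidase gene MSMO1 fell from 1227, 1387, 1109.8 and 1270.2 to 836, 789, 723 and 888 (change -0.63 ± 0.089, adjusted p = 0.00809). CYP51A1 and MVK each lost the call in 11 of the 24 alternatives, with the same sign in each.

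Several other sterol enzymes did not pass the test but had no overlap between groups. DHCR7, a reductase of the sterol nucleus, read 1376, 1429, 1271 and 1347 with DMSO and 956, 861, 989 and 989.9 with AZ2 (change -0.52 ± 0.097, adjusted p = 0.0709). NSDHL, HSD17B7 and EBP, which process the sterol nucleus, had changes of -0.33 ± 0.068, -0.47 ± 0.13 and -0.30 ± 0.071 with no overlap between groups. SC5D had -0.29 ± 0.12 and overlapped. TM7SF2, a reductase whose step can also be carried out by the lamin B receptor, had a change of 0.12 ± 0.15 with an interval of -0.19 to 0.43.

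Counted as a list of 22 enzymes, all 22 had values high enough to be tested. Of these 9 were called lower, against 0.104% of all genes tested, 0 higher and 13 not called. At an unadjusted p under 0.05, 18 were lower, against 2.59% of all genes, and 0 higher. In 16 the AZ2 libraries were all below the DMSO libraries, against 1.48% of all genes. The change was below 0 in 20 of 22, against 56.2% of all genes tested. The list median was -0.47, and it lay between -0.48 and -0.42 in the alternatives. In single AZ2 libraries the median over the members, relative to the DMSO mean, was -0.49, -0.41, -0.50 and -0.37, and in the DMSO libraries it ran from -0.044 to 0.11. The summed level of the enzymes was 60780 to 66480 with DMSO and 46871 to 50288 with AZ2, so the groups did not overlap. This list was chosen with earlier results of these data known, so its count is not independent evidence of a direction.

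**Figure D3:**
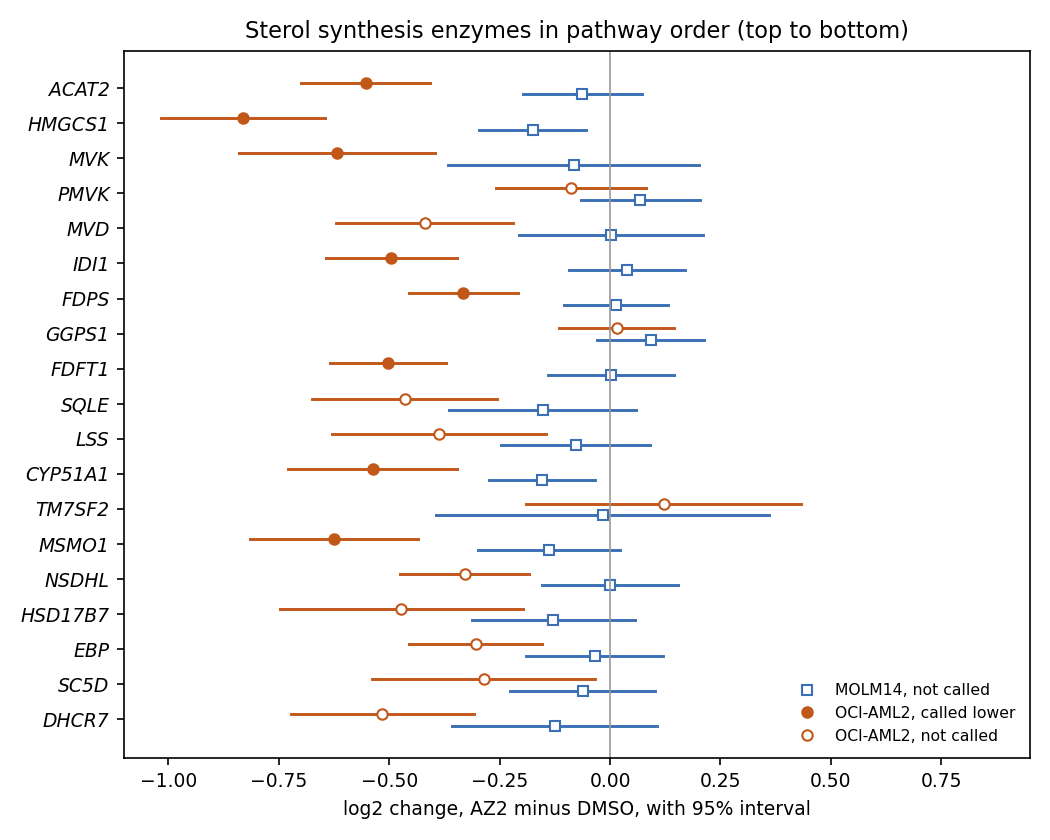
Log2 change with AZ2 for 19 sterol enzymes in pathway order, with 95% intervals of single genes; circles are OCI-AML2 (filled where called) and squares MOLM14, where no gene was called. HMGCS1 lies farthest left in OCI-AML2, while PMVK, GGPS1 and TM7SF2 have intervals that include 0 in both lines.

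Among genes of fatty acid synthesis, the desaturases fell and the synthase did not pass. FADS2, the delta-6 desaturase of polyunsaturated fatty acids, read 1687, 1603, 1611 and 1529 with DMSO and 956, 948, 851 and 936 with AZ2 (change -0.80 ± 0.08, adjusted p = 0.000453), 42.6% less. SCD introduces the double bond of oleate. It read 26584, 26586, 23138 and 23688 with DMSO and 18890.4, 19164, 18568 and 17574 with AZ2 (change -0.43 ± 0.055, adjusted p = 0.00335). FADS1, the delta-5 desaturase and a neighbour of FADS2 on chromosome 11, read 1038, 1045, 881 and 953 with DMSO and 736, 748, 717 and 724 with AZ2 (change -0.42 ± 0.073, adjusted p = 0.0423). Its call was the least stable of the 17, lost in 16 of 24 alternatives. FASN and ACACA, the synthase and the carboxylase that feeds it, had changes of 0.033 ± 0.11 and -0.095 ± 0.14 (adjusted p = 0.996 for both; named after their values were seen). PCYT2, which acts in phosphatidylethanolamine synthesis, had a change of -0.37 ± 0.082 (adjusted p = 0.225; also named after its value was seen). Of 26 members of this list 24 were tested, 3 were called lower, against 0.104% of all genes, and none higher. At an unadjusted p under 0.05, 7 were lower, against 2.59% of all genes, and the median was -0.11.

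The SREBP regulators showed 1 called gene. INSIG1, the sterol-sensing retention factor, had the smallest p of all genes. It read 5274, 5556, 4819 and 5039 with DMSO and 3455, 3419, 3008 and 3378 with AZ2 (change -0.64 ± 0.063, adjusted p = 0.000453), and its paralogue INSIG2 had a change of 0.025 ± 0.076 with an interval of -0.14 to 0.19. The transcription factor genes themselves were not called. SREBF2 read 1532, 1373, 1458 and 1409.8 with DMSO and 1330.1, 1320.1, 1213 and 1156 with AZ2; the groups did not overlap, and the change was -0.20 ± 0.074 (adjusted p = 0.896). SREBF1, the gene of the fatty acid-directed form, had a change of 0.095 ± 0.12, with overlap. SCAP, MBTPS1 and MBTPS2 had intervals of -0.19 to 0.21, -0.13 to 0.18 and -0.32 to 0.17. These RNA values do not report on the cleavage of the SREBP proteins.

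No gene of cholesterol uptake or transport was called. STARD4, a sterol carrier, had -0.35 ± 0.11, and TMEM97, which binds the transporter NPC1, had -0.18 ± 0.069; neither was called. NPC2, which passes cholesterol out of lysosomes, had -0.25 ± 0.086 and NPC1 -0.009 ± 0.12. MYLIP, NPC1L1, SCARB1, SOAT1, LIPA, RNF139, ERLIN1 and ERLIN2 had adjusted p of 0.996 or more. In the combined list of SREBP control and uptake, 22 members were tested. INSIG1 was the 1 called lower, against 0.104% of all genes, and none was higher. At an unadjusted p under 0.05, 6 were lower (2.59% of all genes), 3 lay below DMSO without overlap (1.48% of all genes), and the median was -0.081. On the efflux side, the transporter gene ABCA1 was low, at 2.9, 5.04, 3.7 and 5.57 with DMSO and 11.5, 7.43, 6.46 and 15.1 with AZ2. The groups did not overlap, and it was not called (change 1.03 ± 0.33, adjusted p = 0.728). It passed the low-value limit of 10 in 4 or more libraries only because the ARM165 libraries were high, at 350 to 427. No DMSO library reached 10, and the change ran from 0.68 to 1.20 in the alternatives.

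EGR1 rose. It read 1506, 1509, 1640 and 1533 with DMSO and 2196, 2036, 2241 and 2412 with AZ2 (change 0.52 ± 0.066, adjusted p = 0.00335), 43.6% more, and the lowest AZ2 library was above the highest DMSO library. Other genes that ERK signalling induces were not called with it. DUSP5, a nuclear ERK phosphatase, had 0.20 ± 0.081 without overlap and FOS, an AP-1 subunit, 0.25 ± 0.12 with overlap (adjusted p = 0.996 for both). Of 35 tested members of the ERK list 1 was called higher, against 0.0065% of all genes, and none lower. At an unadjusted p under 0.05, 2 were higher, against 2.18% of all genes, and the median was 0.015.

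The 3 remaining called genes lie outside lipid synthesis. C6orf223, an open reading frame of chromosome 6, read 205, 125, 226 and 252 with DMSO and 90.4, 89.4, 63.8 and 95 with AZ2 (change -1.21 ± 0.19, adjusted p = 0.0248); DMSO replicate 2 stood lowest in its group. CECR2, a bromodomain protein of chromatin remodelling complexes, read 126, 118, 177 and 165 with DMSO and 88.8, 58.3, 74.4 and 55.7 with AZ2 (change -1.07 ± 0.18, adjusted p = 0.0294). Both had larger log2 changes than any called lipid gene, with larger SEs, and lost their calls in 10 and 11 of 24 alternatives. AC025048.6, known by a clone name, read 78.2, 98.4, 10.3 and 65 with DMSO and 0, 0, 1.94 and 0 with AZ2. It passed the filter (10 in 4 or more libraries) only because the DMSO libraries were high, as no AZ2 library reached 10. With ARM165 it read 76.8, 52.9, 9.22 and 5.68, so it varied within a group. Its change of -5.23 ± 0.87 (adjusted p = 0.0294) depends on the 1 added before the logarithm and was -3.34 and not called with 5 added.

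The genes next in order of p were a mixture. LILRB4, an inhibitory receptor of monocytic cells, lay just outside the threshold at 962, 796, 932 and 989.9 with DMSO and 674, 691, 623 and 732 with AZ2 (change -0.43 ± 0.078, adjusted p = 0.0511). FADS1 lay just inside it. KCNN4, a calcium-activated potassium channel gene, read 3202, 3038, 3264 and 3333 with DMSO and 3978, 3692, 4208 and 4217 with AZ2 (change 0.32 ± 0.063, adjusted p = 0.0874). DLG3, a scaffold protein gene, was low with DMSO at 13.2, 0.68, 11.5 and 6.32 and read 37.8, 45.9, 49.2 and 48.1 with AZ2 (change 2.75 ± 0.51, adjusted p = 0.0694). AC025030.1 was listed at 0 in all DMSO libraries and at 19.4, 19.4, 10.4 and 11.3 with AZ2 (adjusted p = 0.0694). It passed the low-value filter only because the AZ2 libraries were high. GDAP2 and TUBA1A, an alpha-tubulin gene, had changes of -0.50 ± 0.098 and -0.27 ± 0.054. The pseudogene RPL3P4 had -0.95 ± 0.18, and estimated counts can be split between it and its near-identical parent. In 58 of the 100 genes with the smallest p the AZ2 libraries were all below the DMSO libraries, against 1.48% of all genes. Of the 100, 22 were in the 3 lipid lists, which hold 22, 22 and 24 of the 15377 genes tested. Those lists were chosen with earlier results of these data known. The 100 were ranked on the same libraries, so separation of the groups largely follows from the ranking.

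No gene of the PI3K gamma complex or its AKT kinases was called. PIK3CG read 3237, 3259, 2995 and 2845 with DMSO and 3047, 3080.4, 2919 and 3147 with AZ2, with overlapping groups and an interval of -0.14 to 0.11. PIK3R5 had a change of 0.092 ± 0.07, PIK3R6 of -0.38 ± 0.32, AKT1 of 0.046 ± 0.061 and AKT2 of -0.015 ± 0.081. In the whole list of 27 class I PI3K and AKT components, 0 were called by limma, against 0.111% of all genes tested. An unadjusted p under 0.05 was reached by 0, against 4.77% of all genes, and the list median was -0.015. Counts of 0 in a list of this size are near those shares. Transcripts that FOXO factors induce, which AKT restrains, gave no call among 22 tested, against 0.111% of all genes. At an unadjusted p under 0.05, 1 was higher, against 2.18% of all genes. This was IRS2, an adaptor of insulin signalling, which read 5082, 5186, 4629.9 and 4785 with DMSO and 5418, 5652, 5229.9 and 5644 with AZ2 without overlap (change 0.16 ± 0.056, adjusted p = 0.896).

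Outside the lists already described, cell cycle, growth and differentiation lists held no called gene, against 0.111% of all genes tested. Over the 22 pathway lists other than the 3 lipid lists, the LXR list among them, medians ran from -0.092 to 0.087. DNA replication genes included UHRF1, a maintenance factor of DNA methylation, which read 20495, 20394, 19394 and 20325 with DMSO and 18764, 19028, 18131 and 18489 with AZ2 (change -0.12 ± 0.045, adjusted p = 0.986). The replicative helicase genes MCM3 and MCM4 also read below DMSO without overlap, with changes of -0.095 ± 0.044 and -0.14 ± 0.078, not called. These 3 were the members of the list with AZ2 below DMSO without overlap, against 1.48% of all genes. The change was below 0 in 32 of 40 members, against 56.2% of all genes, with a median of -0.042. The list medians ran from -0.10 to -0.0076 in single AZ2 libraries and from -0.057 to 0.054 in DMSO libraries, so the ranges overlapped. Mitochondrially encoded mRNAs had a change above 0 in 11 of 13 members, against 6729 of 15377 genes, and a median of 0.087. Their medians were 0.0018 to 0.13 in single AZ2 libraries and -0.029 to 0.054 in DMSO libraries, which overlapped. MT-CO1, a cytochrome c oxidase subunit, had 0.13 ± 0.059 without overlap, and 3.6e-15 to 0.16 in the alternatives. The share of all values on mitochondrially encoded genes was 7.20 to 8.11% with DMSO and 7.75 to 8.63% with AZ2. Its part in the median of 0.087 was not tested.

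Inflammatory genes had changes on both sides of 0, and none of 22 tested was called by limma, against 0.111% of all genes. At an unadjusted p under 0.05, 1 was lower and 2 higher, against 2.59% and 2.18% of all genes. CCL2, a monocyte chemokine, read 134, 137, 137 and 158 with DMSO and 96.4, 84.2, 95.2 and 85.7 with AZ2 (change -0.64 ± 0.18, adjusted p = 0.593). CXCL8, a neutrophil chemokine, read 2353, 2512, 2189 and 2471 with DMSO and 3081, 2843, 2648 and 2812 with AZ2 (change 0.26 ± 0.077, adjusted p = 0.653). IL1B had 0.31 ± 0.099, also without overlap. In the list, AZ2 lay above DMSO without overlap in 2 members and below it in 1, against 1.18% and 1.48% of all genes. Of the monocyte and granulocyte list, CD163, a scavenger receptor of macrophages, was low, at 0, 6.11, 3.37 and 4.42 with DMSO and 22.8, 19.5, 11.5 and 11.9 with AZ2 (adjusted p = 0.621). No DMSO library reached the filter value of 10 for CD163. ELANE, neutrophil elastase, overlapped, with a change of -0.26 ± 0.14. The VLDL receptor gene VLDLR, counted with the ATF4 and amino acid stress genes, had -0.26 ± 0.081 without overlap (adjusted p = 0.72), and the p53 target TIGAR had -0.77 ± 0.26, with AZ2 replicate 1 at 158 and the other 3 AZ2 libraries at 352 to 451.

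Between AZ2 libraries the ribosomal protein and oxidative phosphorylation lists were spread. Medians of the ribosomal protein list were -0.11, -0.031, 0.034 and 0.14 in the 4 AZ2 libraries, against -0.055 to 0.060 in the DMSO libraries. For the nuclear oxidative phosphorylation subunits they were -0.17, -0.099, -0.050 and 0.065, against -0.057 to 0.11. The sterol medians showed no such crossing of 0. Markers of other cell types gave little signal: CD3D and CD3E of T cells, PF4 of megakaryocytes and KRT19 of epithelial cells were at 0 in all 8 libraries. Summed levels were 875 to 995 with DMSO and 751 to 996 with AZ2 for T and NK markers, of which NKG7 made up most, and 143 to 175 and 88.8 to 146 for B cell markers. For erythroid and megakaryocyte markers they were 782 to 815 and 739 to 830, of which EPOR made up most, and for epithelial cell and fibroblast markers 58.1 to 92.1 and 54.7 to 102.

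**Figure D4:**
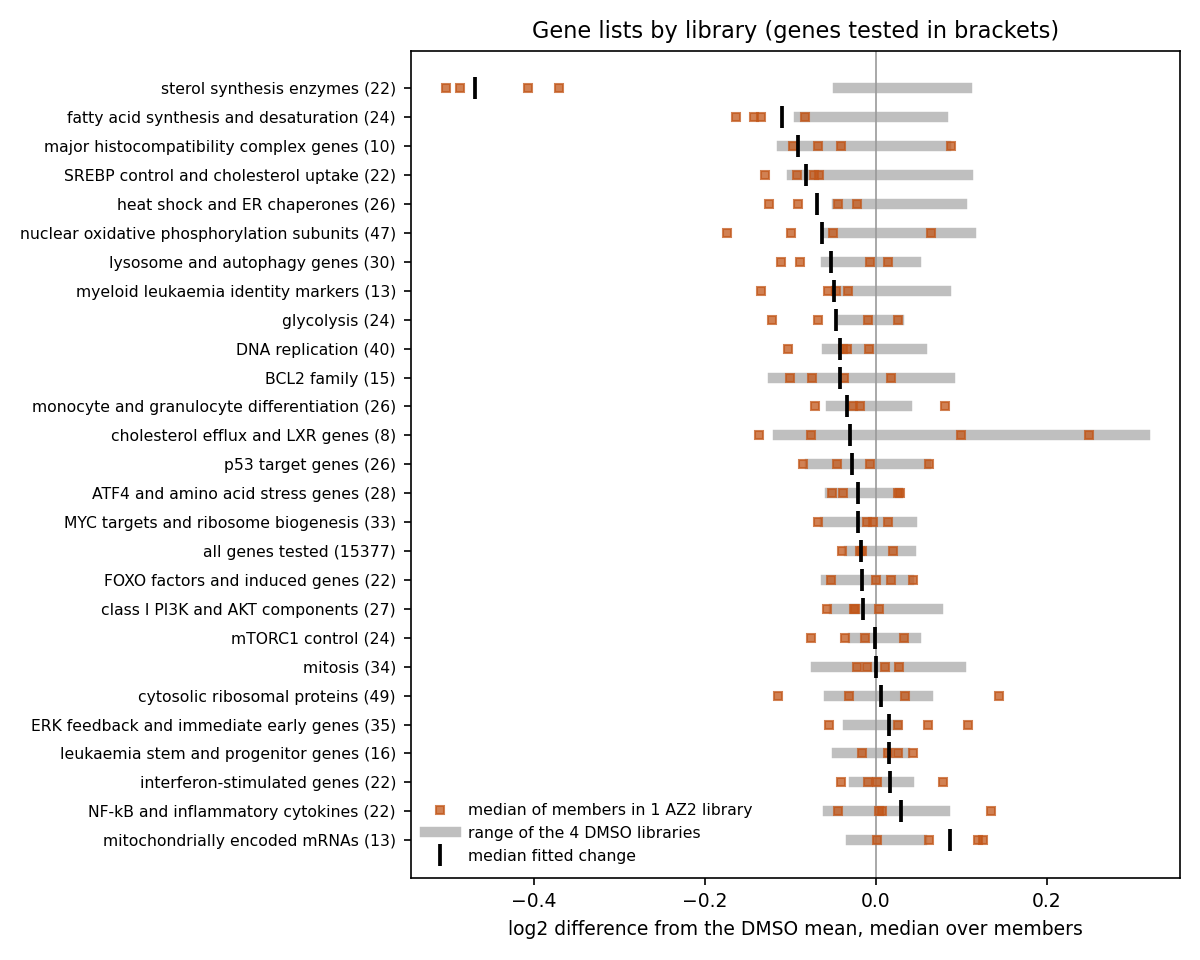
Median over the tested members of each pathway list and the myeloid identity list in each AZ2 library (squares), as a log2 difference from the DMSO mean, with the range of the 4 DMSO libraries (grey bars) and the median fitted change (black ticks). Of the lists drawn, the sterol enzymes lie farthest left, with all 4 squares between -0.50 and -0.37; the marker lists of other cell types, which have few tested members and medians in single AZ2 libraries from -0.92 to 0.55, are not drawn.

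The response of the sterol genes was then set against that of MOLM14. A single fit of all 24 libraries tested the difference, on changes within each line, since levels were scaled separately and cannot be compared. Of 14287 genes, 4 (0.028%) were called, each lower in OCI-AML2: HMGCS1, INSIG1, IDI1 and FDFT1. At an unadjusted p under 0.05 there were 746 (5.22%). In MOLM14, HMGCS1 read 1735, 1728, 1942 and 1828 with DMSO and 1591, 1599, 1610.2 and 1598 with AZ2. Its groups did not overlap there either. The changes were -0.18 ± 0.056 there and -0.83 ± 0.087 in OCI-AML2 (difference -0.66 ± 0.10, adjusted p = 0.0174). IDI1 read 2944, 3104, 3108 and 3194 and 3362, 3006, 3129 and 3197 in MOLM14, with overlap (difference -0.53 ± 0.094, adjusted p = 0.0388). FDFT1 read 3476, 3310.2, 3626 and 3502 and 3366, 3199.7, 3669.6 and 3711, also with overlap (difference -0.50 ± 0.092, adjusted p = 0.048). For INSIG1 the values were 3680.5, 3381, 3609.9 and 3733 and 3395, 2971, 3482 and 3123 (difference -0.49 ± 0.085, adjusted p = 0.0388). INSIG1 was also lower in MOLM14, with a change of -0.15 ± 0.058 and an interval of -0.28 to -0.030, and was not called there.

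Other called genes did not pass this test of the difference. ACAT2 and C6orf223 came closest, with differences of -0.49 ± 0.093 and -1.20 ± 0.22 (adjusted p = 0.0536 for both). FADS2 had -0.61 ± 0.19 (adjusted p = 0.64), SCD -0.29 ± 0.072 (0.489) and CECR2 -1.15 ± 0.29 (0.489). EGR1 had a change of -0.002 ± 0.21 in MOLM14 and a difference of 0.52 ± 0.24, with an interval of 0.033 to 1.01 (adjusted p = 0.935). Over the 21 sterol enzymes tested in both lines, 20 differences were below 0, against 7765 of 14287 genes. At an unadjusted p under 0.05, 17 were lower (2.62% of all genes), with a median of -0.35 against -0.016 over all genes. Each difference contains the OCI-AML2 change, and the list was chosen with earlier results known, so these counts are not independent evidence. In MOLM14 alone, 15 of the 21 enzymes had a change below 0, against 7066 of 14287 genes. An interval wholly below 0 was seen there for 2 enzymes, against 547 of 14287 genes. The median change of the enzymes in MOLM14 was -0.062, against 0.0014 over the genes tested in both lines. In that line 0 of 15288 genes were called by limma. There, 899 (5.88%) had an unadjusted p under 0.05, with 3.79% of genes lower. The number called for the difference was 0 without OCI-AML2 DMSO replicate 1, OCI-AML2 AZ2 replicate 1 or 3, MOLM14 DMSO replicate 1, 2 or 4, or MOLM14 AZ2 replicate 3, and none of the 4 genes was called in all 22 alternatives. It was 1 without OCI-AML2 DMSO replicate 4, 2 without OCI-AML2 DMSO replicate 2 or MOLM14 AZ2 replicate 1 or 4, and it rose to 7 when MOLM14 DMSO replicate 3 was left out.

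ARM165 in the same line provides a second treatment, compared with the same 4 DMSO libraries and at a dose not known to match; it changed 10125 of 15377 genes (65.8%). The values are therefore given side by side only. EGR1 was 1547 ± 63.3 (mean ± SD, n = 4) with DMSO, 2221 ± 154 with AZ2 and 3568 ± 258 with ARM165. C6orf223 was 202 ± 55, 84.6 ± 14.1 and 757 ± 71.6 in the same order. CECR2 was 147 ± 29.2, 69.3 ± 15.4 and 485 ± 40.6. LILRB4 was 919.9 ± 85.9, 679.9 ± 44.9 and 3435 ± 183. EGR1 was thus above DMSO with either compound, while C6orf223, CECR2 and LILRB4 were below DMSO with AZ2 and above it with ARM165. Among the lipid genes, the changes with AZ2 and ARM165 were -0.83 ± 0.087 and -0.97 ± 0.087 for HMGCS1 and -0.64 ± 0.063 and -0.32 ± 0.063 for INSIG1. For FADS2 they were -0.80 ± 0.08 and -1.56 ± 0.08. ACAT2 had -0.55 ± 0.068 and -1.86 ± 0.068, and FDFT1 -0.50 ± 0.062 and -1.39 ± 0.062. FDPS had -0.33 ± 0.058 and -1.43 ± 0.058, and SCD -0.43 ± 0.055 and -0.26 ± 0.055. Of the called lipid genes, only INSIG1 and SCD fell less with ARM165 than with AZ2.

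**Figure D5:**
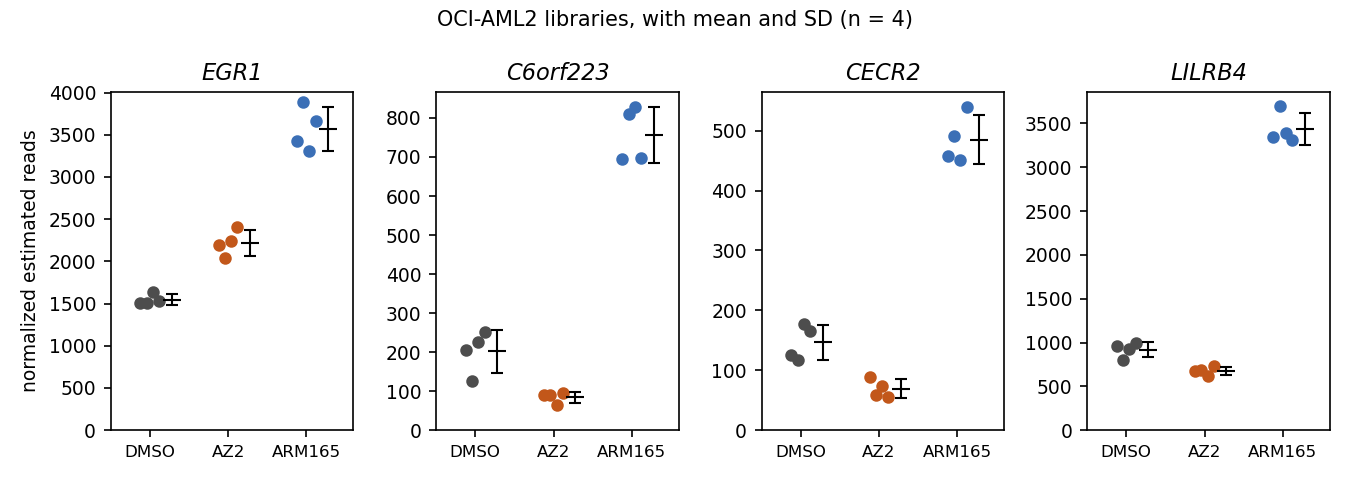
Normalized estimated reads (vertical axes from 0) of EGR1, C6orf223, CECR2 and LILRB4 in the DMSO, AZ2 and ARM165 libraries of OCI-AML2; points are libraries and bars mean ± SD (n = 4). EGR1 steps up from DMSO to AZ2 to ARM165, and the other 3 genes are lowest with AZ2 and highest with ARM165.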

How the data were processed

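Libraries of poly(A) RNA came from a stranded TruSeq kit, per the labels' protocols, and transcripts were quantified with kallisto, per the submitters' processing notes (version not stated). Genome build, annotation and scaling method are not given in the sources used here. The deposited signal values are the authors' normalized estimated counts per gene symbol, 1 table per cell line. They are not whole counts, so no count model was run.

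Tests used log2(value + 1) of genes that reached 10 in 4 or more libraries of the line. A limma 3.58.1 model (R 4.3.3) of the 3 group means was fitted to the 12 OCI-AML2 libraries, with a variance trend (9 residual and 5.67 prior degrees of freedom). The line difference used all 24 libraries (18 and 5.32). Intervals are 95% intervals of single genes. Replicates were distinct, with r of 0.977 to 0.985 and no 2 columns identical. The tests were checked on simulated counts, drawn independently for each library around DMSO means and without an ARM165 effect. That check does not cover replicates that share a culture.

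Samples were grouped by their labels, and 0 columns were left out. Some genes are not reported here. Named genes otherwise are every called gene, PIK3CG, PIK3R5, PIK3R6, AKT1 and AKT2, the sterol and SREBP control lists, up to 3 members with the smallest p from each of the other lists, the 10 genes next in adjusted p, and genes called between lines. All 30 gene lists, the question and the tests were chosen with earlier results of these data known. Alternatives varied the offset, filter, scaling, variance model, libraries used and replicate block. Promoters are from RefSeq (GRCh38.p14). Figures were drawn with matplotlib 3.10.9.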

Additional observations from a re-analysis of the deposited data

Results flagged for a closer look

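Among 286 groups of 4 libraries examined, 15 had 1 library far from the other 3, and chance gives about 14.3 (1 in 20). High libraries were DMSO replicate 2 for IDI1 (4764, others 4085 to 4134) and PGK1 (14133), DMSO replicate 1 for INSIG2 (749) and SCARB1 (7998), DMSO replicate 4 for PFKFB4 (138) and CCL2 (158), AZ2 replicate 4 for NSDHL (1568) and PDIA6 (27939.5), and AZ2 replicate 3 for AC025048.6 (1.94, others 0). Low libraries were AZ2 replicate 3 for IDI1 (2806, others 3074 to 3125), DMSO replicate 2 for PIK3R5 (1328), DMSO replicate 3 for ERLIN2 (1878) and UHRF1 (19394), and AZ2 replicate 1 for BAK1 (2013) and TRAC (62.7). For IDI1, the high DMSO library and the low AZ2 library both lie on the outer side of the called difference, and the call held in all 12 fits that left out 1 library.

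The AZ2 change differed between the lines, by the test of the difference itself, for HMGCS1 (-0.66 on the log2 scale, OCI-AML2 minus MOLM14), IDI1 (-0.53), FDFT1 (-0.50) and INSIG1 (-0.49). No cause of this difference was tested.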

How the results depend on the processing

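All 17 calls kept their sign in all 24 alternatives, and 6 kept the call in each. The counts moved as well, from 1 higher and 16 lower in the main fit. With an offset of 5, quantile normalization, only the DMSO and AZ2 libraries, robust moderation or array weights, 2 genes were higher. With no filter, 5 were higher and 10 lower. Without a variance trend 7 were called (2 higher, 5 lower), 6 of them among the 17. Leaving out 1 library gave 9 to 17 called genes, 1 to 2 higher and 8 to 16 lower. For the line difference (0 higher, 4 lower), 2 were higher with no filter, 8 were called (2 higher) with only the DMSO and AZ2 libraries, and leaving out 1 library gave 0 to 7 called, 0 to 1 higher and 0 to 7 lower. The causes were not tested. With the filter at 50, no B cell or epithelial and fibroblast marker was left, so those medians have no value there. Depth and spread gave a median SE of 0.115, which limits the size of change that can be called.

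Under a replicate block (numbers 1 to 4), 10 genes were called, all among the 17, 9 of them lower, and 2 for the line difference, both lower. Whether the numbers pair the samples could not be settled. Deviations of same-numbered DMSO and AZ2 libraries correlated at -0.071 to 0.19, and 1 of 4 pairs was over 0.1. Those of differently numbered libraries correlated at -0.113 to 0.115. With 4 libraries per group, such values cannot exclude a pairing.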

Other observations

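Several further gene groups were measured in which limma called 0 members, against 0.111% of all genes tested. Lysosome and autophagy genes had a median change of -0.053. At an unadjusted p under 0.05, 2 of 30 tested members were lower, against 2.59% of all genes. NEU1, a lysosomal sialidase, was among them, with -0.34 ± 0.13. Heat shock and ER chaperones had a change below 0 in 25 of 26 members, against 56.2% of all genes tested, with a median of -0.068. At an unadjusted p under 0.05, 1 member was lower, against 2.59% of all genes. This was MANF, a secreted ER stress protein, with -0.15 ± 0.068. The medians of this list in single AZ2 libraries ran from -0.12 to -0.022, and in single DMSO libraries from -0.045 to 0.10, so the ranges overlapped. Of 24 mTORC1 control genes, 1 was lower at an unadjusted p under 0.05 and 1 higher, against 2.59% and 2.18% of all genes. The lower was DEPDC5, a subunit of the GATOR1 inhibitor (-0.21 ± 0.094), and the higher RHEBL1, a RHEB-like GTPase (0.49 ± 0.20). Both overlapped between groups.

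Genes of mitosis had a median of 0.00023 and no member at an unadjusted p under 0.05. Glycolysis genes had a median of -0.046 with none, and interferon-stimulated genes a median of 0.016 with none. The share over all genes tested was 4.77%, so counts of 0 in lists of this size are near it. CIITA, the master regulator of MHC class II genes, read 31.1, 25, 19.9 and 25.6 with DMSO and 42.2, 38.5, 31.9 and 45.5 with AZ2 without overlap (change 0.62 ± 0.34, adjusted p = 0.996). Among markers of other cell types, CD79B, a B cell receptor subunit, read 74.2, 23.3, 32.9 and 27.8 with DMSO and 15.8, 13.2, 16.1 and 12.2 with AZ2 (change -1.26 ± 0.57, adjusted p = 0.996).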
